A study of Arabidopsis thaliana with 18 samples.

Results

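The regions described here are 885 mid-sized stretches of Arabidopsis thaliana chromatin whose H3K27me3 signal was lower in 1 of the 2 deposited pools. They were chosen from 10228 H3K27me3 regions by 4 limits: a place on nuclear chromosomes 1 to 5, a length from 500 bp to below 5000 bp, a total signal of at least 10000 in the pool called control, and a total signal in the pool called treat that was at least 1.5-fold lower. Of 5981 nuclear regions of this length, 5039 reached the signal limit, and the 885 were 17.6% of these, while 19.4% of all H3K27me3 regions met the fold limit alone. The choice used the H3K27me3 values of both pools, so every H3K27me3 difference given for these regions describes the choice and carries no test.

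H3K27me3 is the trimethyl mark that Polycomb repressive complex 2 places on histone H3, and in plants it covers the bodies of genes kept silent in a tissue, among them many regulators of meristems, flowers and hormone responses. H3K4me3 is placed near the start of transcribed genes by Trithorax-type enzymes, and the 2 marks mostly occupy different genes. Many Arabidopsis domains of H3K27me3 span a single gene. The mutant gene chr4 is CHR4 (PKR1), which encodes a CHD-type remodeller of nucleosomes related to PICKLE, and its name does not refer to a chromosome.

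Chromatin came from meristem-enriched shoot apices of plants grown for 5 weeks at 21 °C in short days of 8 h light and 16 h dark. The wild type (WT) and the chr4 mutant were compared, and the labels give no allele for chr4 and no further treatment. Antibodies against H3K27me3, H3K4me3 and histone H3 gave 18 samples in 6 groups of 3, and the H3 libraries were not analysed here. The 3 replicates of each genotype and mark were pooled before the tables were made, so each region has 1 value per pool, no spread between replicates can be given, and library depth is unknown. Neither pool is tied to a genotype in the sources used here, so directions are of treat against control only. The targeted gene CHR4 carried no H3K27me3 region and an H3K4me3 region with a signal of 25726 (control pool) and 24676 (treat pool), which gives no check of the labels. Apices hold several cell types, and a lower value in a pool does not tell fewer cells with the mark from less mark per cell. Of 5 shoot meristem markers, all had an H3K27me3 region and 2, STM and KNAT1, had an H3K4me3 region. All 3 leaf photosynthesis markers carried H3K4me3 and none carried H3K27me3, while the 4 root and 3 embryo markers carried H3K27me3 and no H3K4me3 region. None of these markers lay on the 885 regions.

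Most of the 885 regions kept over 50% of the control signal in the treat pool, and a small number were close to 0 there. Control total signal, a value without a stated unit that the authors deposited per region, ran from 10016 to 134224 with a median of 17656. Treat total signal ran from 2.71 to 84056 with a median of 8986. The log2 ratio (treat over control) had a median of -0.86, with the middle 50% between -1.23 and -0.69, against -0.14 over all nuclear H3K27me3 regions and -0.17 over the 4154 other mid-sized regions with the same signal limit. A difference of 1.5 to 2-fold held for 554 regions, 2 to 4-fold for 249, 4 to 8-fold for 45, and 8-fold or more for 37. The opposite rule, with at least 10000 in the treat pool and 1.5-fold less in the control pool, was met by 330 mid-sized regions, 54 of which are also among the 4154. Lower regions were thus 72.8% of both kinds together, and 52.6%, 587 against 528, once the treat signals were recentred on the median of all nuclear regions.

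**Figure D1:**
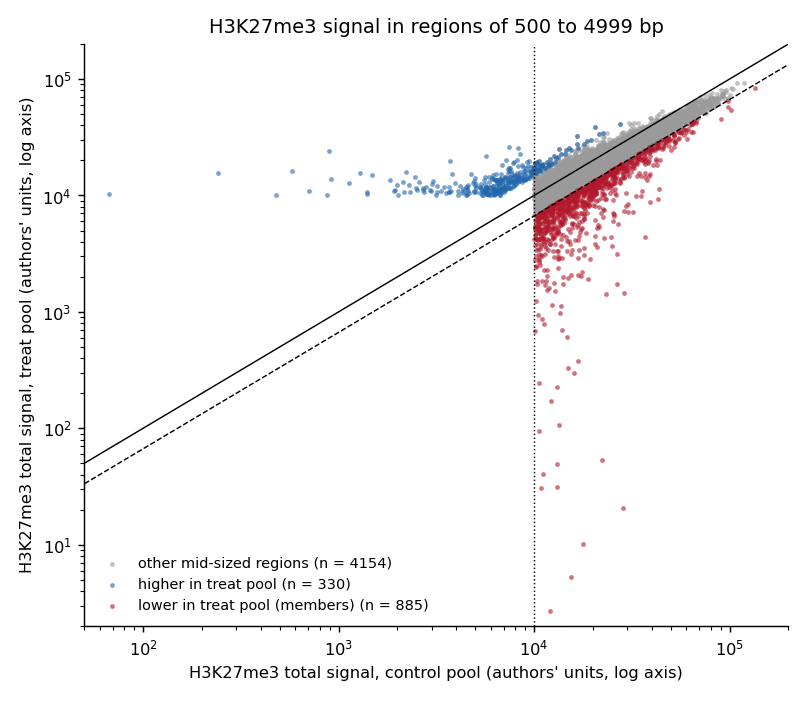
H3K27me3 total signal in the control pool (horizontal, log axis) and the treat pool (vertical, log axis) for regions from 500 bp to below 5000 bp. Regions of this length in none of the sets named here are not drawn. Red points are the 885 regions lower in the treat pool, grey points the 4154 other regions and blue points the 330 higher ones. The solid line marks equal signal, the dashed line the 1.5-fold limit and the dotted line the signal limit of 10000. Most red points lie close under the dashed line, with a sparse tail that reaches down to 2.71.

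Peak height, the second deposited measure, gave the same picture in a weaker form. Its median log2 ratio was -0.73, and 620 of the 885 regions were also at least 1.5-fold lower in height, while 6 had an equal or higher height in the treat pool. The deposited width had a median of 1140 bp (control pool) and 740 bp (treat pool), and 90 regions had a treat width of 0. An FDR under 0.05 stood in the authors' deposited table for 181 of the 885 regions (20.5%), and for 399 of all 1985 regions at least 1.5-fold lower (20.1%), which are 3.9% of all H3K27me3 regions. The rule used this contrast, and nothing is read from these counts.

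The regions just inside and just outside the fold limit were alike in size of difference. ELIP2, a light-stress protein of the thylakoid, had 38895 (control pool) and 25906 (treat pool), CLO4, a caleosin, 13364 and 8903, and AT5G04310 25330 and 16875, each 1.5-fold. Just outside lay a region on AT2G34140 with 23628 and 15753, a region off any protein-coding gene with 16381 and 10923, and CYP715A1, a cytochrome P450, with 47961 and 31980.

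At the far end, 11 regions were at least 100-fold lower, and 24 had a treat signal under 1000. The spermidine synthase gene SPDS2 had a region on chromosome 1 (26485500 to 26487340) with 28384 (control pool) and 20.6 (treat pool). A region shared by XRCC4, a partner of DNA ligase IV in double-strand break repair, and RLP37, a receptor-like protein (chromosome 3, 8222310 to 8222860), had 10613 and 94.5. NAC016, a NAC transcription factor that promotes leaf senescence (chromosome 1, 12448580 to 12449540), had 13108 and 225. At these 3 regions the deposited width in the treat pool was 0.

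Further down the fold ranking of regions on genes with a symbol came SPL11, a miR156-targeted factor of the age pathway. Its region (chromosome 1, 9499740 to 9501310) had 26445 and 1739, a 15.2-fold difference. Only 418 bp of that region lay in SPL11. ASY2, a relative of the meiotic axis protein ASY1, was 13.8-fold lower, with 13572 and 985. GMD1, a GDP-mannose dehydratase, was 12.5-fold lower, with 10932 and 877. The ubiquitin-conjugating enzyme genes UBC11 and UBC12 share a region of 2360 bp (chromosome 3, 2641560 to 2643920) that was 8.5-fold lower, with 37105 and 4366. These neighbours are related copies, and how reads that fit both were placed is not given in the sources used here. ORP2A, an oxysterol-binding protein, had 26566 and 3156, the pectate lyase gene AT59 14056 and 1747, and the glutathione transferase gene GSTF13 17485 and 2208. HAF2, a TAF1-type histone acetyltransferase, had 15476 and 2089, and ALIS5, a subunit of a lipid flippase, 19231 and 2850.

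Among the regions on genes with a symbol, those with the most control signal also had much signal in the treat pool. SPL8, a factor of anther and gynoecium development (chromosome 1, 364740 to 367810), had 98015 (control pool) and 65137 (treat pool), and the sulfotransferase gene ST2A 90474 and 45660. KNU, the zinc finger repressor KNUCKLES that ends stem cell activity in the flower (chromosome 5, 4521930 to 4523260), had 64050 and 41065. BOP2, a BTB-ankyrin protein that patterns leaf bases and floral organs, had 63916 and 41138. The potassium transporter gene HAK5 had 67241 and 43579, DOF2.4 65400 and 43185, ERF12 65135 and 35276, and the sucrose transporter gene SUC5 64762 and 41841. The differences of these 8 regions ran from 1.5-fold at SPL8 to 1.98-fold at ST2A. Across the 885 regions, Spearman's rho of the log2 ratio with control signal was 0.29 and with length 0.30, so shorter and weaker regions had the larger differences. The signal limit and the fold limit both shape that relation, and it is a description across regions.

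Compared with the other mid-sized regions, the 885 were shorter, with a median of 1160 bp against 1950 bp, while the 330 higher regions had a median of 960 bp. They lay less often on genes: 301 of 885, 34.0%, shared under 150 bp with any protein-coding gene, against 19.5% of the other mid-sized regions and 27.9% of the 330 higher ones. Short regions can miss genes more easily, and by length the shares were 38.7% against 30.9% under 1000 bp, 34.0% against 22.3% from 1000 to below 2000 bp, and 24.1% against 14.3% from 2000 bp up. The share off genes was thus higher among the 885 in each of the 3 length classes. Among the 181 regions under the FDR limit of the authors' deposited table it was 27.1%. Of the 301, 184 lay within 1000 bp of a protein-coding gene, with a median gap of 738 bp. The median H3K27me3 log2 ratio was -0.91 at these 301 and -0.84 at the 584 on genes.

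Several of the largest folds lay off genes, but regions off genes were not more frequent among the largest folds. Of the 37 regions at least 8-fold lower, 10 lay off genes, a smaller share than the 34.0% of all 885. The counts off genes were 181 of 554 at 1.5 to 2-fold, 95 of 249 at 2 to 4-fold and 15 of 45 at 4 to 8-fold. A region on chromosome 2 (2759480 to 2760220) between AT2G06845 and XTH4, a cell wall xyloglucan enzyme gene, had 12118 (control pool) and 2.71 (treat pool). A pair of regions on chromosome 1 (13603200 to 13603920 and 13604020 to 13604960), 100 bp apart between ACC2 and AT1G36230, had 11068 and 40.6, and 15398 and 5.33. A region on chromosome 2 (14328950 to 14330210) had 13433 and 108. It reaches ETT, an auxin response factor gene of gynoecium patterning, but shares under 150 bp with it. In all these places the treat pool was far below the control pool, and no replicate values were at hand to set beside them.

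The next H3K27me3 region was within 1000 bp for 413 of the 885 (46.7%), close to the 49.9% of the other mid-sized regions. Of those 413 neighbours 82 were themselves chosen by the rule. Among the other 331, 245 had less signal in the treat pool (74.0%), 98 of them at least 1.5-fold (29.6%), and 53 had at least 1.5-fold more (16.0%). Next to the other mid-sized regions, with the 885 left out in the same way, 52.0% of 1957 neighbours were lower, 11.5% at least 1.5-fold, and 27.9% were at least 1.5-fold higher. There were 56 pairs of neighbouring members within 1000 bp, and both regions of 10 pairs were at least 2-fold lower. On chromosome 3 a region of AT3G11690 (3695080 to 3696510) was 16.5-fold lower, and 350 bp away another (3694130 to 3694730) was 14.9-fold lower. Near AT1G77610 on chromosome 1, regions 780 bp apart were 71.1-fold and 11.1-fold lower. Regions of 5000 bp or more, the long Polycomb domains, lay within 5000 bp of 9.38% of the 885 and of 12.3% of the other mid-sized regions.

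On genes, 584 regions shared at least 150 bp with 615 protein-coding genes, 2.24% of the 27444 in the gene table and 9.08% of the 6772 genes with any H3K27me3 region. They covered a median of 59.2% of the gene body, against 91.2% for the other mid-sized regions and 47.8% for the 330 higher ones. The lists below were chosen with earlier results of these data known. Only a gene with an H3K27me3 region can lie on these regions, so the number of such genes is given for each list. The shares to set beside these counts are 2.24% of all genes and 9.08% of genes with any H3K27me3 region.

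Of 17 listed meristem and boundary genes, 14 carried an H3K27me3 region and 4 lay on these regions. CUC3, a NAC factor that sets organ boundaries (chromosome 1, 28673200 to 28675260), had 43316 (control pool) and 11368 (treat pool), 3.81-fold lower. Its relative CUC1 had 11699 and 5000. The class I KNOX homeobox genes KNAT6 and KNAT2 had 18284 and 7459, and 20429 and 13358. In each case the region covered part of the gene, from 14.0% of KNAT6 to 37.7% of CUC3. Anywhere on the gene, KNAT2 carried an H3K4me3 region with 2988 and 6769, and KNAT6 one with 7960 and 8893, while CUC1 and CUC3 had none. Of the other 13 genes, 7 lay on long domains and 3 on other mid-sized regions. Over all 17 genes, 9 lay on long domains, so some of the 4 also carried a long domain. The folds above are of the chosen regions and not of the whole genes.

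In the gibberellin list 16 of 29 genes carried an H3K27me3 region. On these regions lay 4, and they stand at different steps of the pathway. RGL3, a DELLA repressor of gibberellin responses (chromosome 5, 5765550 to 5766200), had 14487 and 4405. GA3OX4, which makes active gibberellin, had 27582 and 12682, a 2.17-fold difference. GA2OX4 and GA2OX8, which inactivate gibberellins or their precursors, had 23619 and 14556, and 26737 and 15867. Of the other 25 genes, 7 lay on other mid-sized regions and 3 on long domains. Over all 29 genes, 9 lay on other mid-sized regions, so some of the 4 also carried a mid-sized region outside the rule.

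All 3 SPL genes that carried any H3K27me3 region, SPL4, SPL8 and SPL11, were among the 615, of 15 listed SPL genes matched to the gene table. SPL4, a small miR156-controlled promoter of flowering (chromosome 1, 19806630 to 19808290), had 19042 and 9395, a 2.03-fold difference. The polyamine list had SPDS2 as 1 of 14, and the meiosis list ASY2 as 1 of 18. The suberin and cutin list had KCS20, a fatty acid elongase, as 1 of 21, with 20729 and 13327. KCS20 also carried a mid-sized region outside the rule. In the same order, 2, 1 and 17 genes of these lists carried an H3K27me3 region. ULT2, a relative of the Trithorax-group factor ULTRAPETALA, was 1 of 14 genes of the Trithorax and demethylase list, with 30732 and 17992. In that list 2 genes carried an H3K27me3 region. The lists for floral identity (15 matched), floral repressors and integrators (20) and embryo and seed maturation (13) had no gene on these regions. Nor had those for root identity (13) or PRC2 and LHP1 (12). In this order, 14, 9, 11, 11 and 3 of the genes carried an H3K27me3 region. Of these, 8, 1, 5, 7 and 1 lay on long domains, which the length limit leaves out. The 15 photosynthesis and 12 ubiquitously expressed genes carried no H3K27me3 region.

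**Figure D2:**
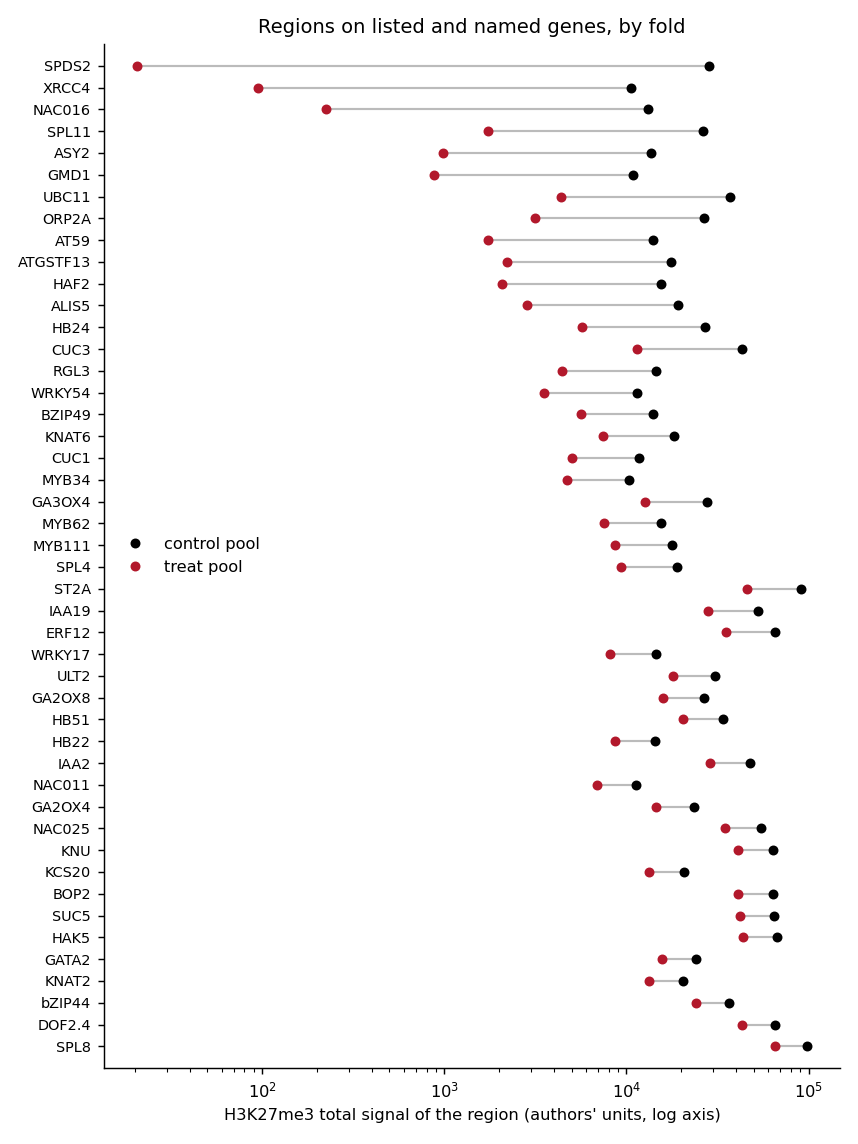
H3K27me3 total signal (horizontal, log axis) in the control pool (black) and the treat pool (red) for 46 regions on listed and named genes, with 1 row per region labelled by its gene and a grey line joining both pools. Rows are sorted by fold, from SPDS2 at the top (28384 and 20.6) to SPL8 at the bottom (98015 and 65137).

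Transcription factor families were spread over the regions in small numbers. By symbol, 7 of 121 MYB genes (5.79%), 4 of 81 NAC genes (4.94%), 3 of 41 HB genes and 2 of 67 WRKY genes lay on them, and 0 of 17 TCP genes, 8 of which carried an H3K27me3 region. None of the 23 genes with an ARF symbol, a count that leaves out ETT, carried any H3K27me3 region. MYB34, which turns on indole glucosinolate synthesis, had 10345 and 4746, and the flavonol regulator MYB111 17813 and 8704. WRKY54 had 11463 and 3540, a 3.24-fold difference, and HB24, a zinc finger homeodomain gene that shares its region with AT2G18340, had 26851 and 5696. The auxin response repressors IAA19 and IAA2 had 52576 and 28224, and 47555 and 28848. Enzyme families were present as well, with 13 of 229 CYP genes (5.68%) and 5 of 58 UGT glycosyltransferase genes (8.62%). Against the genes with any H3K27me3 region, these shares were 8.54% for MYB, 9.30% for NAC, 13.6% for HB and 5.26% for WRKY. They were 10.2% for CYP and 21.7% for UGT (5 of 23 genes), beside 9.08% over all such genes.

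Genes of 8 microRNAs had at least 50 bp in 7 of the regions (0.79%), against 48 of the 4154 other mid-sized regions (1.16%), so microRNA genes were no more frequent here. MIR166a, whose product limits class III HD-ZIP genes, lay in a region with 35193 (control pool) and 21229 (treat pool). MIR166e, of the same family, had 15945 and 10477, and MIR164b, which restrains CUC1 and CUC2, had 20924 and 13716. MIR167d, of a family that targets auxin response factors, had 13763 and 7820. MIR169f had 11291 and 7184, MIR771 and MIR851 share a region with 10861 and 4661, and the gene table also places MIR156i in the SPL4 region. These differences ran from 1.52-fold at MIR166e to 2.33-fold at MIR771 and MIR851.

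H3K4me3, which the rule did not use, was more often present at these regions than at other mid-sized ones. An H3K4me3 region shared at least 150 bp with 133 of 885 (15.0%, exact 95% interval 12.7 to 17.6%), with 312 of the 4154 other mid-sized regions (7.51%, 6.73 to 8.35%) and with 23 of the 330 higher regions (6.97%, 4.47 to 10.3%). The intervals cover counting of regions only, not differences between replicates. By length, from the shortest class up, the shares were 16.0% against 9.23%, 13.2% against 7.31% and 17.3% against 7.22%, so the difference was present in each length class. By control signal they were 12.8% against 7.26% at 10000 to 20000, 20.3% against 8.35% at 20000 to 40000, and 10.3% against 6.32% above that. Of the 133 overlaps, 125 were at regions on protein-coding genes and 8 at regions off them. Over the 615 genes, wherever on the gene the mark lay, 29.3% carried an H3K4me3 region, against 10.9% of genes on other mid-sized regions and 58.4% of all protein-coding genes. The 885 regions also cover less of each gene, and the part of that in the H3K4me3 share was not tested.

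**Figure D3:**
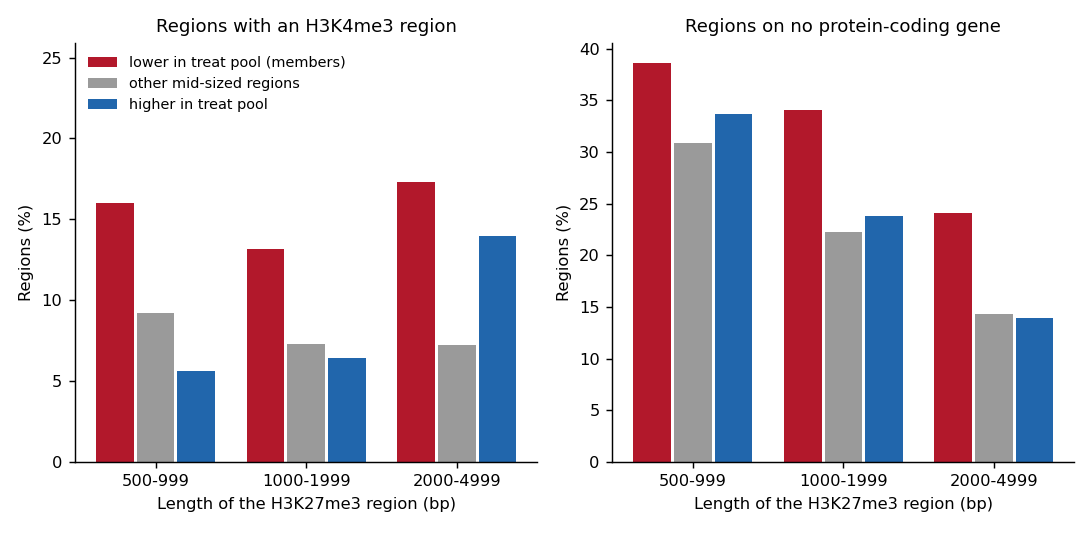
Share of H3K27me3 regions (vertical, %) that overlap an H3K4me3 region by at least 150 bp (left) and that lie on no protein-coding gene (right), in 3 length classes (horizontal). Red bars are the 885 regions lower in the treat pool, grey bars the other mid-sized regions and blue bars the higher ones. Red bars are the tallest in each class, as in 17.3% against 7.22% and 14.0% with H3K4me3 from 2000 bp up.

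The H3K4me3 regions in question were weak, with a median control total signal of 10210 against 24432 over all nuclear H3K4me3 regions. This held for the other sets as well, with 10067 at other mid-sized regions and 11755 at the higher ones. The H3K4me3 region lay wholly inside the H3K27me3 region at 59 of the 133, crossed 1 edge at 51 and reached over both edges at 23. With H3K4me3 regions above the lower quartile of mean signal, the share at the 885 was 4.18%, against 2.07% at other mid-sized regions.

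Where both marks were present, the H3K4me3 ratios lay somewhat higher than at other regions. The median H3K4me3 log2 ratio was 0.089 at the 133 regions, -0.074 at the 312 other mid-sized regions and -0.46 at the 23 higher regions, against -0.077 over all H3K4me3 regions. The ranges overlapped widely, from -3.23 to 4.55 at the 133 and from -5.1 to 3.3 at the 312. A positive ratio was found at 74 of 133 (55.6%), at 128 of 312 (41.0%) and at 3 of 23. Within the length classes the medians at the 885 were -0.024, 0.094 and 0.41, and at the other mid-sized regions -0.097, -0.022 and -0.12. The distance between both sets was thus largest in the longest class, and in the shortest class both medians were below 0. With 1 pool per genotype and mark, none of these differences can be set against the spread between replicates.

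**Figure D4:**
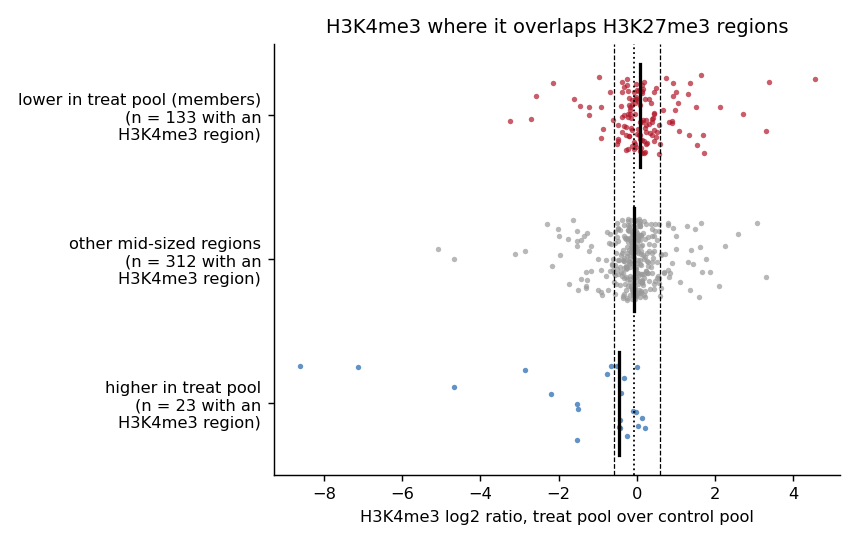
H3K4me3 log2 ratio of treat over control pool (horizontal) at each H3K27me3 region that overlaps an H3K4me3 region, in 3 rows for regions lower in the treat pool (n = 133), other mid-sized regions (n = 312) and higher regions (n = 23). Each point is a region, black bars are medians (0.089, -0.074 and -0.46), dashed lines mark 1.5-fold and the dotted line the median of all H3K4me3 regions. Points are spread vertically only for legibility, and the 3 clouds overlap.

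At least 1.5-fold more H3K4me3 in the treat pool was found at 25 of the 133 regions (18.8%), against 3.55% of all H3K4me3 regions, and at least 1.5-fold less at 14 (10.5%), against 4.98%. All 39 lay in the lower quartile of mean H3K4me3 signal, where 13.5% of all regions were higher and 19.3% lower. Of the 96 weak regions at the 885, 26.0% were higher and 14.6% lower, and of the 226 at other mid-sized regions 14.6% and 19.5%. An FDR under 0.05 in the authors' deposited table was held by 20 of the 25 and 12 of the 14. Over all H3K4me3 regions past the same fold, the authors' deposited table gave that FDR to 69.4% of the higher and 70.7% of the lower ones, which are 2.46% and 3.52% of all H3K4me3 regions.

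The largest H3K4me3 ratio of the 133 regions was at AT4G25320 (chromosome 4, 12953110 to 12956760), with 985 (control pool) and 23148 (treat pool), with H3K27me3 at 22194 and 53.8. SUC5, the sucrose transporter gene, had an H3K4me3 signal of 606 and 6309 while H3K27me3 was 1.55-fold lower. The region off genes between ACC2 and AT1G36230 with an H3K27me3 signal of 40.6 in the treat pool had 724 and 7148 in H3K4me3. AT5G11930 had 1101 and 7195, AT5G24580 1530 and 6714, and AT4G06744 3656 and 12015. These H3K4me3 values were low in the control pool at each of the 6 regions.

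Regulators and signalling genes were among the other 19 with more H3K4me3 in the treat pool. RGL3 had 3371 and 9653, a 2.86-fold difference in H3K4me3 beside 3.29-fold less H3K27me3. RUP1, a repressor of UV-B signalling, had 1995 and 6426, FTM1 2125 and 6699, and the senescence factor gene ORS1 2640 and 7719. OFP12 of the OVATE family had 4213 and 10389, and the abscisic acid receptor gene PYL6 3977 and 8367. AIL5, an AINTEGUMENTA-like factor, had 3169 and 6062, the peptide gene CLE17 4129 and 6951, and the region of MIR166e 4722 and 9050. AT4G15975 combined a 20.1-fold lower H3K27me3 signal with an H3K4me3 signal of 10342 and 20646.

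Both marks were at least 1.5-fold lower at the remaining 14. HDA18, a histone deacetylase gene that acts in root epidermis patterning, had an H3K4me3 signal of 6410 (control pool) and 682 (treat pool). MYB34 had 8449 and 1407, AT4G21970 6288 and 962, and AT1G11210 9143 and 2063. IPT5, a cytokinin synthesis gene, had 9225 and 4763, GATA2, a factor of light responses, 11504 and 6065, and the region of MIR164b 13136 and 7282. H3K27me3 at the 14 regions was 1.52-fold to 3.4-fold lower, so none of the regions with the largest H3K27me3 folds was among them. Of the 37 regions at least 8-fold lower in H3K27me3, 10 had an H3K4me3 region. It was at least 1.5-fold higher at 3 and at least 1.5-fold lower at 0, beside 18.8% and 10.5% of all 133. Of the 45 regions 4 to 8-fold lower, 5 had an H3K4me3 region, with 0 higher and 0 lower by that fold. Across the 133 regions, Spearman's rho between the log2 ratios of both marks was -0.093. It was -0.16 at the 312 other mid-sized regions with an H3K4me3 region and 0.0049 at the 23 higher ones. SPDS2, with the largest H3K27me3 fold on a gene with a symbol, had an H3K4me3 signal of 18724 (control pool) and 26271 (treat pool). That difference, 1.4-fold, was under the limit.

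**Figure D5:**
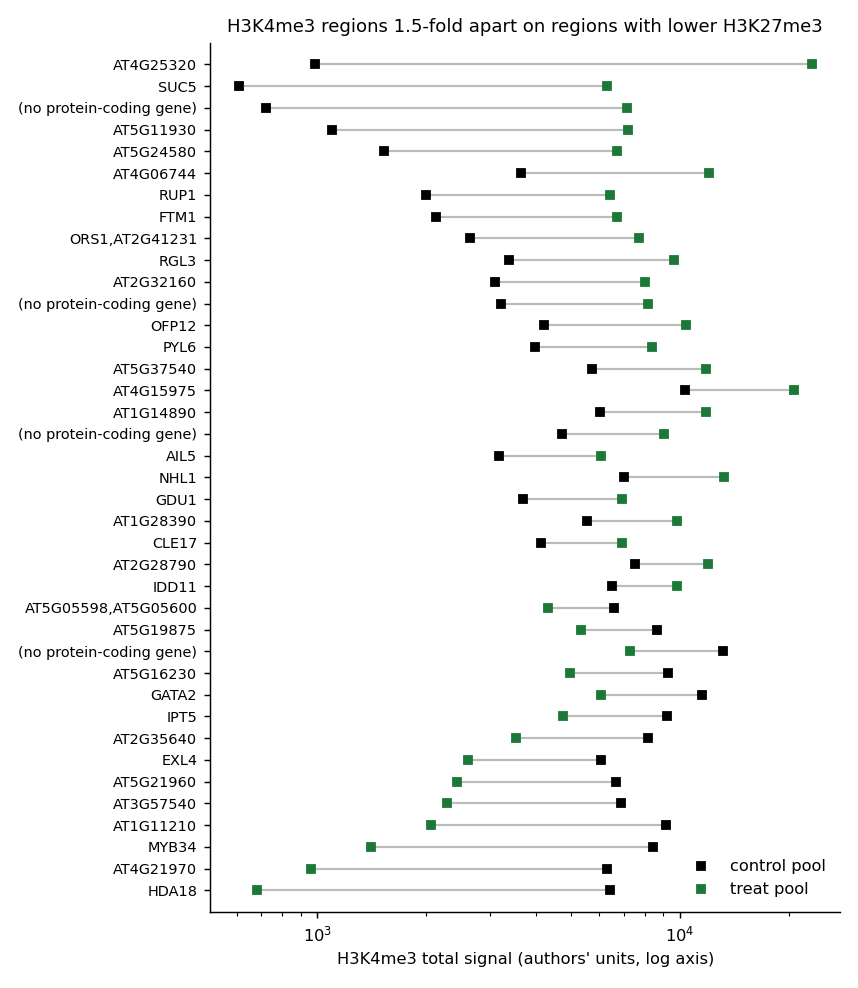
H3K4me3 total signal (horizontal, log axis) in the control pool (black) and the treat pool (green) at the 39 regions with lower H3K27me3 whose H3K4me3 differed at least 1.5-fold, with 1 row per region labelled by its genes. The upper 25 rows are higher in the treat pool, led by AT4G25320 (985 and 23148), and the lower 14 are lower, ending with HDA18 (6410 and 682).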

How the data were processed

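The authors deposited a table of regions per mark, and per the file headers it gives total signal and height (scores without a stated unit), and width for a control and a treat pool, a log2 ratio and an FDR. The deposited FDR, used as a q-value, has no stated computation, and the deposited log2 values are of treat over control. Bowtie and TAIR10 are named in the submitters' processing notes, and the region caller and normalization are not given in the sources used here. Folds, shares and medians were computed with Python 3.11.15, pandas 2.3.3 and scipy 1.17.1, without any test, since each genotype is 1 pool per mark. The rule and overlap counts were tested on simulated data. A gene or H3K4me3 region was linked by 150 bp of overlap (50 bp for microRNA genes), taking the H3K4me3 region with most overlap. Genes came from a TAIR10.1 table whose coordinates are not printed; 58.4% of protein-coding genes had an H3K4me3 region, and 41.1% when moved by 20000 bp. Alternatives changed the fold, signal, length and FDR limits, the measure, the centring and the overlap. Pooling hides the spread between replicates, and the scaling of the pools sets how many regions are lower. Members and lists were chosen with earlier results of these data known. Named were the 12 largest folds and 8 largest control signals on genes with a symbol, list members, the 10 largest H3K4me3 differences, up to 3 per factor family and 3 on each side of the fold limit. Other genes with an H3K4me3 difference, the microRNA genes and the regions off genes were named after their values were seen. No reference sequence was used here.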

Additional observations from a re-analysis of the deposited data

How the results depend on the processing

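No paired analysis was possible because each genotype has a single pooled value per mark, and for that reason no replicate could be left out. The number of regions, 885, became 331 at 2-fold, 2318 at 1.2-fold, 369 with a control signal of 20000 or more, 541 from 1000 bp up, 587 after recentring and 181 with an FDR under 0.05. Peak heights gave 820. The H3K4me3 share of 15.0% became 19.3% with a 1 bp overlap, 4.18% with H3K4me3 above the lower quartile of mean signal and 12.7% at 2-fold. The other mid-sized regions had 12.1% with 1 bp. The median H3K4me3 log2 ratio of 0.089 became 0.17 after recentring and 0.41 from 2000 bp up, and it turned to -0.024 under 1000 bp. The 615 genes became 366 with 50% of the gene body and 218 at 2-fold. The share off genes of 34.0% became 27.1% with an FDR under 0.05, 38.7% under 1000 bp and 24.1% from 2000 bp up. The cause of these shifts was not tested, except that stricter limits leave fewer regions. The length and signal classes and all alternatives for the share off genes were chosen after seeing the data. Unknown depth, a single pool per genotype and an FDR of unstated computation limit every value.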
